A study of Mus musculus with 6 samples.

Results

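Gatm, Bhmt, Miox, Hpd, Hgd, Fah, Agxt2, Ddc and Dao are 9 genes of amino acid, creatine and inositol metabolism, followed here in RNA of isolated mouse glomeruli. They were found in the deposited table of 27179 features by matching the NCBI Gene identifiers of these symbols, and all 9 were present. They are known as enzymes of the proximal tubule, the nephron segment that reabsorbs filtered solutes, or of the liver, or of both. The tubule receives filtered amino acids and inositol, makes the precursor of creatine, turns L-DOPA into dopamine and breaks down tyrosine and D-amino acids. Glomeruli, the filters at the head of the nephron, consist of podocytes, endothelial cells and mesangial cells, which are not the cells these enzymes are known for.

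The 6 libraries came from male mice of 9 weeks on a mixed C57BL/6 background that the labels describe as mildly proteinuric. In 3 KO mice both copies of Parva, the gene of the adhesion protein alpha-parvin, were floxed (Parva-fl/fl) and a Cre transgene directed to podocytes was present, so the other cells of the glomerulus were not its target. The 3 WT mice carried Parva-fl/fl without Cre, so all 6 mice had the floxed alleles, and no group with Cre and unfloxed Parva was analysed here. Glomeruli were collected after perfusion with magnetic beads.

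Between 11886828 and 20552984 whole reads per library were recovered from the deposited normalised counts, which are reads per gene divided by a size factor for each library. The most abundant gene alone held between 2.15% and 17.9% of the reads of a library. Values per library are given below in the order of the replicate numbers. Parva, the deleted gene, stood at 6585, 7520 and 7890 normalised counts in the WT libraries and at 2288, 2338 and 1942 in the KO libraries, so the libraries followed their labels. All markers of podocytes (14), endothelial cells (13) and mesangial cells (10) that were looked up were detected. Of these, 7, 10 and 9 passed the limma test described below as lower in KO, as did 8.58% of all genes tested. A higher mean log2 level in KO was found for 1, 0 and 0 of them. The podocyte marker Mapt, which did not pass, had an extreme value in a single library. It stood at 7790, 10273 and 2.6761e+06 normalised counts in WT and at 6091, 6031 and 6957 in KO.

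All 9 enzyme genes rose in KO, and in each of them every KO library lay above every WT library. The separation was narrow for Hpd, with 92 reads in KO-3 and 88 in WT-1. The genotypes were compared with limma, a linear model fitted across the 13946 genes with a mean normalised count of at least 10, on log2(normalised count + 1), with a threshold of 0.05 on the adjusted p. Of all genes tested, 13.5% were called higher in KO and 8.58% lower (22.1% in either direction). In 23.2% of them every KO library lay above every WT library, and in 21.9% below. The median log2 fold change was 1.73 over the 9 genes and -0.006 over all genes tested. The 9 genes were chosen with earlier results of these data known, so this contrast is a description and not independent support. RNA of whole glomerular preparations was sequenced. A difference in the number of cells of a type, tubule cells included, and a difference in RNA per cell therefore cannot be told apart. The call depended on single libraries: it held for all 9 genes without WT-1 and for 8 of 9 without KO-1 (Hpd had an adjusted p of 0.0994). It held for 0 of 9 without WT-2, WT-3, KO-2 or KO-3, while all 9 had an unadjusted p under 0.05 in each of these fits. Calls over all genes were lost as well, with 1, 0, 4 and 3 left in these fits against 3085 with all 6 libraries. They numbered 4294 without WT-1 and 2062 without KO-1. Without the variance trend of limma 0 of 9 passed, as did 0.00717% of all genes.

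**Figure D1:**
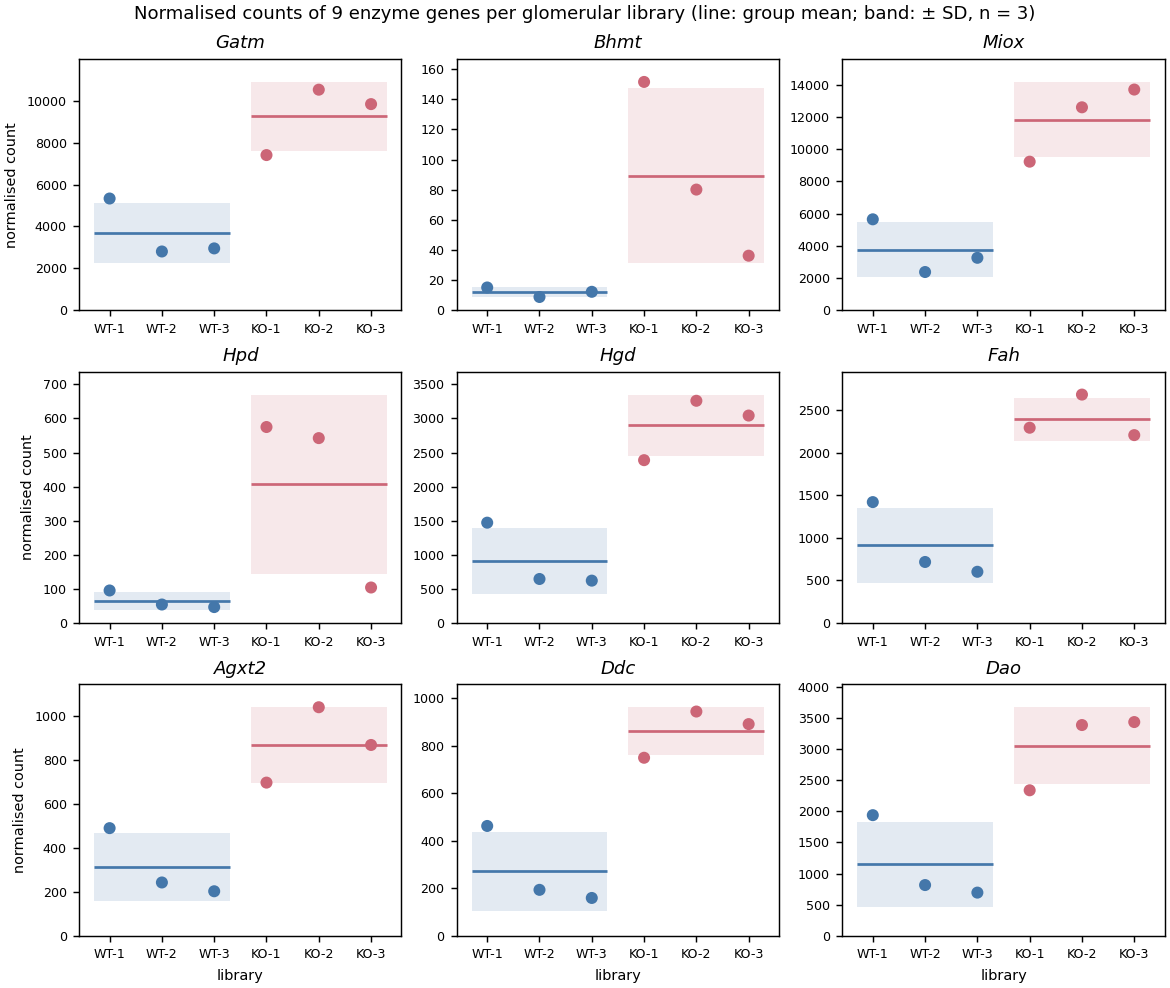
Normalised counts (y axis, linear, from 0) of the 9 enzyme genes in the 6 libraries (x axis); points are libraries, lines group means and bands ± SD (n = 3). In every panel the 3 KO points lie above the 3 WT points, WT-1 is the highest WT library, and Bhmt and Hpd spread most among the KO libraries, from 36.3 to 151 and from 104 to 575.

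Gatm (NCBI Gene 67092; mm10 chromosome 2, 122594473 to 122611277) encodes the amidinotransferase that joins arginine and glycine into guanidinoacetate, the precursor of creatine. Its normalised counts were 5333, 2809 and 2956 in the WT libraries and 7403, 10519 and 9832 in the KO libraries. The groups were separate, with WT-1 the closest to KO. The mean rose from 3699 ± 1417 to 9251 ± 1637 (SD, n = 3), which gave a log2 fold change (SE) of 1.37 (0.26) with an adjusted p of 0.0286 by limma. This fold change was the smallest of the 9. In the rest of the creatine list, Slc6a8, the creatine transporter, rose with it (from 1086 ± 302 to 2372 ± 518, SD, n = 3), whereas Gamt, which methylates guanidinoacetate to creatine, Ckb and Ckmt1 did not pass, with log2 fold changes of 0.48, 0.11 and 1.37. The creatine kinases Ckm and Ckmt2 were listed at 0 in every library.

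Miox (NCBI Gene 56727; mm10 chromosome 15, 89334473 to 89337007) encodes the oxygenase that opens the ring of myo-inositol to glucuronate. It stood at 5649, 2381 and 3263 normalised counts in the WT libraries and at 9223, 12593 and 13694 in the KO libraries. KO-3 was the highest library and WT-2 the lowest, and no WT library reached the KO range. The mean went from 3764 ± 1691 to 11837 ± 2330 (SD, n = 3), which gave a log2 fold change (SE) of 1.73 (0.31) with an adjusted p of 0.0286 by limma. The steps that follow glucuronate rose as well. Akr1a1, a reductase of glucuronate, had a log2 fold change of 0.99, Dcxr, the xylulose reductase, of 1.39 and Xylb, the xylulose kinase, of 1.68, and Slc5a11, a sodium-coupled inositol transporter, of 1.64. Isyna1, which makes inositol from glucose 6-phosphate (log2 fold change -0.32), the transporters Slc5a3 (-0.01) and Slc2a13 (-0.20), and the phosphatases Impa1 (0.44) and Impa2 (0.76) did not pass. Of the 10 other inositol and glucuronate genes tested, 5 passed as higher in KO.

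Hpd, Hgd and Fah encode 3 enzymes of tyrosine breakdown. Hpd, the dioxygenase of hydroxyphenylpyruvate (NCBI Gene 15445; mm10 chromosome 5, 123171807 to 123182723), makes homogentisate. Hgd (NCBI Gene 15233; chromosome 16, 37579742 to 37632026) opens the homogentisate ring. Fah (NCBI Gene 14085; chromosome 7, 84585159 to 84605942) splits fumarylacetoacetate into fumarate and acetoacetate.

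Hgd stood at 1472, 646 and 622 normalised counts in the WT libraries and at 2388, 3259 and 3042 in the KO libraries, a log2 fold change (SE) of 1.77 (0.32) with an adjusted p of 0.0286 by limma. Fah stood at 1419, 717 and 602 in WT and at 2291, 2680 and 2204 in KO, a log2 fold change (SE) of 1.49 (0.30) with an adjusted p of 0.0286 by limma. Hgd and Fah kept a narrow ratio, with between 0.902 and 1.38 Hgd counts per Fah count over the 6 libraries, a range of 1.53-fold. Pairs outside this pathway were about as narrow: Dao to Agxt2 (1.22-fold), Agxt2 to Ddc (1.37-fold) and Gatm to Miox (1.64-fold). The ratio of Hpd to Hgd was wider. Hpd was at 95.6, 54.4 and 46.9 in the WT libraries and at 575, 542 and 104 in the KO libraries, so KO-3 lay just above WT-1. On the log2 scale KO exceeded WT for Hpd by 2.34 (SE 0.65; adjusted p by limma 0.0429). Without KO-3 the difference was 3.14 (adjusted p 0.0579), and with genotype as the only term it lay between 1.91 and 3.14 over the other scalings, filters and tools and with each library left out. Hpd counts per Hgd count were 0.0649, 0.0842 and 0.0754 in WT, 0.241 and 0.166 in KO-1 and KO-2, and 0.0343 in KO-3, a range of 7.02-fold.

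The other measured genes of the phenylalanine and tyrosine list all rose (4 of 4). Among them were Gstz1, the isomerase between Hgd and Fah (from 1018 ± 351 to 2266 ± 263), Pcbd1 (from 869 ± 406 to 2126 ± 440; SD, n = 3) and Qdpr (log2 fold change 0.81), the last pair recycling tetrahydrobiopterin. Tat, the tyrosine aminotransferase of liver, was listed at 0 in every library.

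Bhmt (NCBI Gene 12116; mm10 chromosome 13, 93616891 to 93637758) encodes the enzyme that moves a methyl group from betaine to homocysteine and so remakes methionine. It was the least abundant of the 9 genes, at 15.2, 8.91 and 12.3 normalised counts in the WT libraries and at 151, 80.1 and 36.3 in the KO libraries. These values rest on 14, 9 and 15 reads in WT and on 171, 74 and 32 reads in KO. KO-1 was the highest and KO-3 the lowest KO library, and WT was low throughout. On the log2 scale KO exceeded WT by 2.58 (SE 0.51; adjusted p by limma 0.0286), the largest of the 9, on a scale that understates changes of low counts. Of the 50-base windows of annotated Bhmt transcripts, 25.3% also occur in transcripts of other genes (776 of 5755 in the pseudogene Bhmt-ps1, 10 in Bhmt2), so part of its reads could have been placed elsewhere or come from elsewhere.

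Bhmt2, the neighbouring paralogue, which uses S-methylmethionine as its methyl donor, did not share the spread of Bhmt within KO. It stood at 328, 191 and 174 normalised counts in the WT libraries and at 645, 891 and 712 in the KO libraries (log2 fold change 1.74, SE 0.25; adjusted p by limma 0.0286). Bhmt counts per Bhmt2 count were 0.235 in KO-1 and 0.051 in KO-3. In the betaine and methionine list 9 of 14 tested genes other than Bhmt passed as higher in KO and none as lower. They include Chdh, which makes the aldehyde that becomes betaine (log2 fold change 1.63), Dmgdh and Sardh, which oxidise the dimethylglycine and sarcosine that follow (1.74 and 1.27), and Cbs and Cth, which carry homocysteine to cysteine (1.68 and 1.59). Ahcy, which releases homocysteine, rose too (1.09). Other genes of the general methyl cycle did not pass: Mat2a (-0.13), Mat2b (0.10), Mtr (0.56) and Mtrr (0.06). Mat1a, the liver form of the S-adenosylmethionine synthetase, was listed at 0 in every library.

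Agxt2 (NCBI Gene 268782; mm10 chromosome 15, 10358516 to 10410158) encodes a mitochondrial aminotransferase that acts on glyoxylate and on dimethylarginines. Its normalised counts were 490, 242 and 202 in the WT libraries and 697, 1041 and 869 in the KO libraries. All KO libraries exceeded WT-1, which had about as many counts as WT-2 and WT-3 together. On the log2 scale KO exceeded WT by 1.57 (SE 0.32; adjusted p by limma 0.0286). In GENCODE M21, 4.90% of its exon bases are shared with Gm21973 on the same strand, so a small part of its reads could be ambiguous. Its relative Agxt, the aminotransferase of liver peroxisomes, was listed at 0 in all 6 libraries, where 3 reads, the limit that a count of 0 allows, correspond to 2.47 to 3.40 normalised counts.

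Among the other glyoxylate and dimethylarginine genes, 4 of 5 rose and 1 fell. Hoga1 and Prodh2, enzymes of hydroxyproline breakdown, rose from 288 ± 116 to 1371 ± 210 and from 203 ± 78.1 to 666 ± 184 (SD, n = 3). Hoga1 was lowest in WT-1 (158, against 377 and 331 in WT-2 and WT-3), unlike the 9 enzyme genes, which were all highest there among WT. The 2 hydrolases of asymmetric dimethylarginine moved apart: Ddah1 rose from 751 ± 203 to 1744 ± 270 and Ddah2 fell from 1503 ± 223 to 1029 ± 102 (SD, n = 3; limma adjusted p = 0.0286 and 0.0325).

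Ddc (NCBI Gene 13195; mm10 chromosome 11, 11814101 to 11898144) encodes the decarboxylase that makes dopamine from L-DOPA and serotonin from hydroxytryptophan. It stood at 462, 193 and 159 normalised counts in the WT libraries and at 749, 943 and 890 in the KO libraries. The KO libraries were close together, and WT-1 was far above the other WT libraries but below all of KO. On the log2 scale KO exceeded WT by 1.82 (SE 0.37; adjusted p by limma 0.0286). The enzymes on either side of it were different: the hydroxylases Th and Tph1 and the dopamine hydroxylase Dbh were listed at 0 in every library, and the monoamine oxidases Maoa and Maob had log2 fold changes of 0.09 and 1.20 that did not pass. Aldh2, an aldehyde dehydrogenase of many substrates, rose from 5257 ± 740 to 7705 ± 1200 (SD, n = 3; limma adjusted p = 0.0487), and it was the only gene of the 5 other aromatic amine genes tested to pass.

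Dao (NCBI Gene 13142; mm10 chromosome 5, 113999635 to 114025675) encodes the peroxisomal oxidase of D-amino acids. Its level was 1938, 815 and 693 normalised counts among WT mice and 2338, 3387 and 3435 among KO mice. WT-1 and KO-1 were nearest to each other here, with 1.21 times as many counts in KO-1. On the log2 scale KO exceeded WT by 1.54 (SE 0.37; adjusted p by limma 0.0327). All 11 other genes of the D-amino acid and glycine list that were tested rose, from 0.64 for Srr, the serine racemase, to 1.72 for Shmt1, the cytosolic serine hydroxymethyltransferase. Among them were Ddo, the oxidase of D-aspartate (1.36), Pipox, a peroxisomal sarcosine oxidase (1.61), Glyat, which conjugates glycine (1.58), Gcat (1.57), and Gldc, Amt, Gcsh and Dld of the glycine cleavage system (1.66, 1.39, 0.99 and 0.75).

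Over all 11 pathway lists together, 120 genes other than the 9 were tested. Counted as passing the limma test, 81 rose, 1 fell and 38 did not pass, with a median log2 fold change of 1.06. Of all genes tested, 13.5% passed as higher and 8.58% as lower. A higher mean log2 level in KO, passing or not, was found for 110 of the 120. In the 4 lists that follow, it was found for 8 of 10, 19 of 19, 12 of 12 and 25 of 26 genes. The arginine and proline list had 5 genes of 10 higher, led by Ass1, the argininosuccinate synthase of arginine synthesis (from 8841 ± 3941 to 26556 ± 5289), its successor Asl (from 789 ± 310 to 2073 ± 439) and Prodh (from 808 ± 399 to 2151 ± 362; SD, n = 3). In the branched-chain list 14 of 19 rose, with smaller fold changes (median 0.76). They include Bckdha, a subunit of the branched-chain keto acid dehydrogenase, at 0.94, and Auh, an enzyme of leucine breakdown, at 0.85. In the tryptophan and lysine list 10 of 12 rose, among them Kmo, Haao and Acmsd of tryptophan breakdown, where Kmo and Acmsd had log2 fold changes of 1.74 and 1.63. In the list of sulfur, histidine, glutamate and serine genes 17 of 26 rose, among them Tst, Ethe1 and Ftcd at 1.51, 1.56 and 1.47. Of the 139 genes listed 12 were at 0 in all libraries, among them Cps1, Tdo2 and Sds, which are known from liver.

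**Figure D2:**
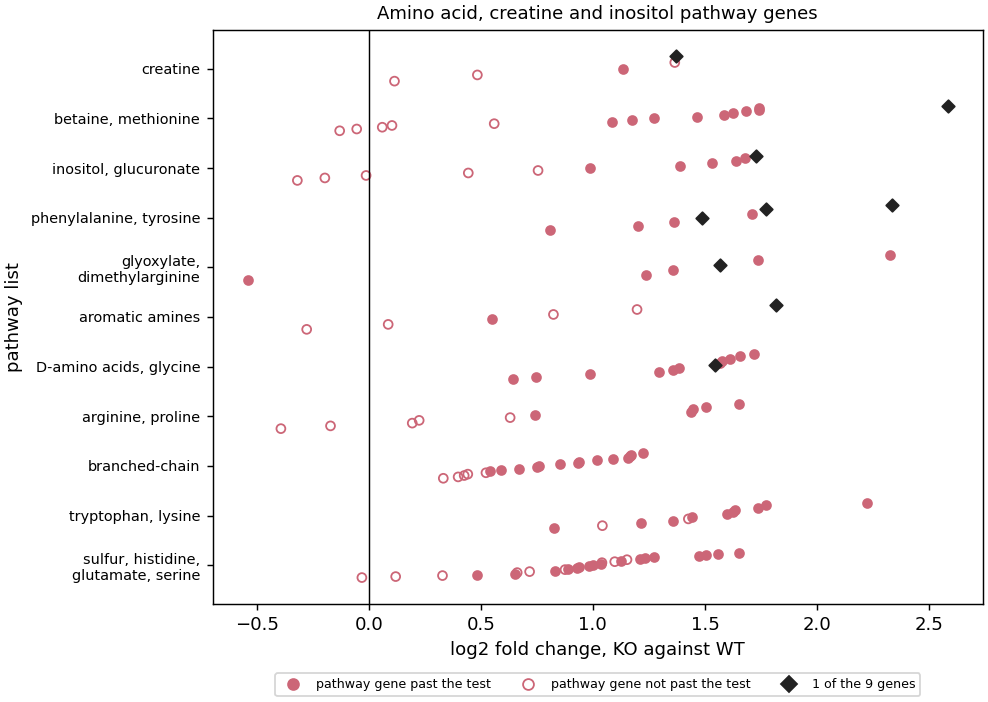
Log2 fold change of KO against WT (x axis) for the genes of 11 pathway lists (rows); filled circles passed the test, open circles did not, and black diamonds are the 9 enzyme genes. The filled circles lie to the right of 0 except Ddah2 at -0.54, and Bhmt and Hpd are the diamonds farthest to the right, at 2.58 and 2.34.

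Levels of different genes were compared per kilobase of annotated exons. Miox was the highest of the 9 in every library and Gatm the next, with 2280 ± 1024 and 1233 ± 472 normalised counts per kilobase in WT and 7169 ± 1411 and 3083 ± 545 in KO (SD, n = 3). Fah, Dao and Hgd followed at 411 ± 199, 389 ± 233 and 349 ± 185 in WT and at 1078 ± 114, 1034 ± 210 and 1108 ± 173 in KO (SD, n = 3), and these 3 did not differ beyond their spread and changed places from library to library. Agxt2 (98.5 ± 49.2 in WT, 274 ± 54.2 in KO) and Ddc (60.8 ± 37.2 in WT, 193 ± 22.5 in KO) came next, with overlapping spread in WT. Hpd was at 30.8 ± 12.3 and 191 ± 124 and Bhmt at 2.1 ± 0.55 and 15.5 ± 10.1 (SD, n = 3), the lowest in every library. Hpd was ranked at place 8 in WT and in KO-3 but at place 6 in KO-1 and 7 in KO-2.

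WT-1 stood apart among the WT libraries for these genes. It was the highest WT library for 9 of 9 genes, at 1.43 (Bhmt) to 2.62 (Ddc) times the mean of WT-2 and WT-3. KO-1 was the lowest KO library for 6 of 9 genes and KO-3 for the other 3. The distance from the highest WT to the lowest KO library on the log2 scale was smallest for Hpd (0.12) and Dao (0.27) and largest for Bhmt (1.20). Without WT-1 the median log2 fold change of the 9 genes was 2.07.

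Markers of the proximal tubule moved in the same way. The marker lists, too, were chosen with earlier results of these data known. Of 27 such markers that do not include the 9 genes, 26 rose, with a median log2 fold change of 1.52, and none was at 0. Their summed normalised counts ranged from 115206 to 261514 in WT and from 295646 to 455699 in KO. Averaged over the markers, the log2 level was 11.69, 10.49 and 10.47 among WT and 12.07, 12.61 and 12.54 among KO, with WT-1 again the highest in WT. Hnf4a, a transcription factor of tubule and liver, was among the markers that rose (1.59). Liver markers were scarce: of 11, Ahsg, Serpina3k, Hamp and F2 were at 0 in every library and Alb lay between 13.9 and 30.1 normalised counts, with summed levels of 229 to 378 in WT and 780 to 1435 in KO, mostly of Ttr. Of the 5 liver markers tested, all had a higher mean log2 level in KO. Ttr and Apoa2 passed as higher, with log2 fold changes of 2.38 and 1.85. Hpx, too low to be tested, was lower in every KO than in every WT library. Of 16 markers of the distal tubule and collecting duct 3 passed the test as higher, but all 16 had a higher mean in KO, with log2 fold changes from 0.78 to 1.92 and a median of 1.33. Their part in the values of the 9 genes was not tested. Their summed level in KO-3 (34865) was below that in KO-1 (50301) and KO-2 (74564).

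When the marker mean was added to the model as a covariate, none of the 9 genes passed (limma adjusted p = 0.9999 for each), and 1, Bhmt, had an unadjusted p under 0.05 (0.0386). The marker mean of every KO library (12.07 to 12.61) lay above that of every WT library (10.47 to 11.69). Covariate and genotype therefore cannot be told apart with these 6 libraries. In this fit 0 genes of the 13946, Parva included, passed in either direction and 410 had an unadjusted p under 0.05. The log2 fold changes of 7 genes fell to between -0.16 (Dao) and 0.42 (Miox). Those of Bhmt and Hpd were 2.66 (SE 1.05) and 1.81 (SE 1.29).

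**Figure D3:**
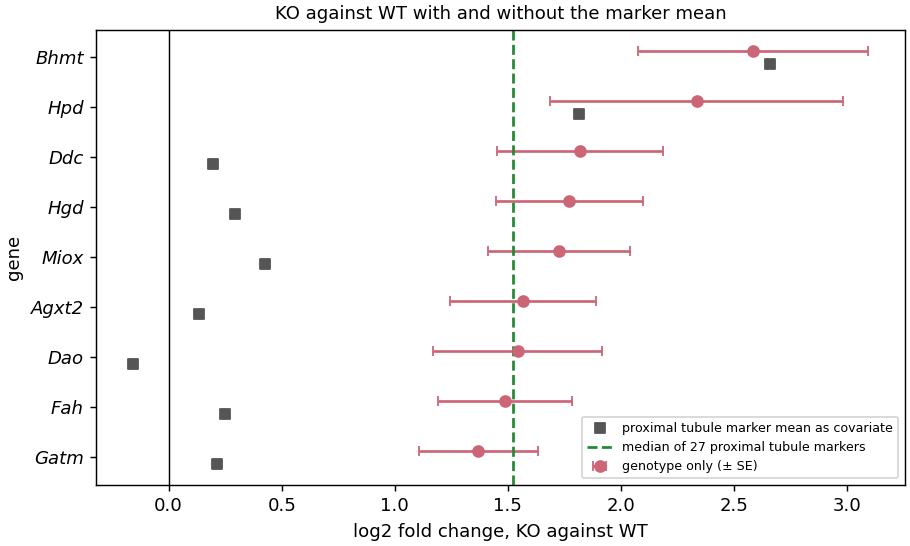
Log2 fold change of KO against WT (x axis) for each enzyme gene (y axis), with genotype as the only term (circles, ± SE) and with the mean of the tubule markers as a further term (squares); the dashed line is the median of 27 markers, 1.52. With the covariate, 7 genes lie between -0.16 and 0.42, while Bhmt and Hpd are at 2.66 and 1.81. The marker mean was higher in every KO than in every WT library, so it cannot be told apart from genotype.

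The level of each gene was also expressed relative to the marker mean of the same library. Relative to the markers, Gatm, Miox, Fah, Agxt2 and Dao overlapped between the genotypes, with KO minus WT differences of -0.15, 0.21, -0.03, 0.05 and 0.03 on the log2 scale. Hgd and Ddc were higher in all 3 KO libraries, by 0.25 and 0.30 (two-sided exact permutation p = 0.1 for each, the smallest that 3 against 3 libraries allow). Hgd was the tightest in WT, at -1.17, -1.15 and -1.19, and at -0.84, -0.94 and -0.96 in KO.

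Bhmt and Hpd did not follow the markers within KO. Hpd was at -5.10, -4.70 and -4.89 relative to the marker mean in the WT libraries, at -2.90 and -3.52 in KO-1 and KO-2, and at -5.82 in KO-3, below every WT library. Bhmt was at -7.67, -7.18 and -6.73 in WT, at -4.81 and -6.27 in KO-1 and KO-2, and at -7.31 in KO-3, inside the WT range. The KO minus WT differences were 0.82 for Hpd and 1.06 for Bhmt, and for both genes the groups overlapped (two-sided exact permutation p = 0.4 and 0.3). Without KO-3 they were 1.68 for Hpd and 1.66 for Bhmt, without KO-1 0.23 and 0.41, and without KO-2 0.54 and 1.13. KO-3 was also the library with the lowest distal tubule markers in KO and the highest mean log2 level of immune markers (7.36, against 5.23 to 6.23 elsewhere), and the part of either in the values of Hpd and Bhmt was not tested.

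**Figure D4:**
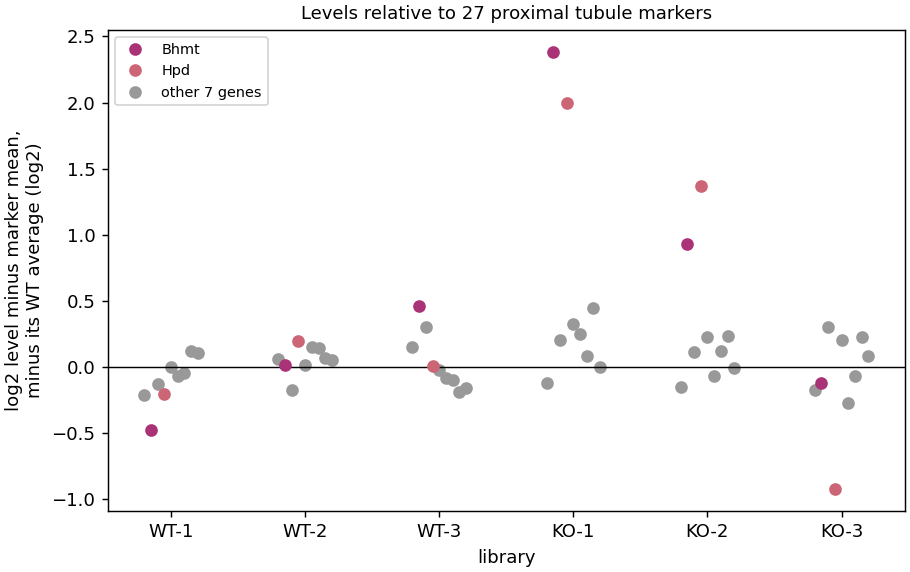
Log2 level of each enzyme gene minus the mean log2 level of 27 proximal tubule markers in the same library, set to 0 at the WT average of the gene (y axis), for each library (x axis). The 7 grey genes stay near 0 in every library, whereas Bhmt and Hpd are high in KO-1 and KO-2, and Hpd is low in KO-3.

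Likeness of patterns was measured as the root mean square difference between log2 levels centred on their mean over the 6 libraries. The 5 genes outside the 9 nearest to the median pattern of the 9, among 11399 ranked, were Aldh8a1 (0.047), an aldehyde dehydrogenase, Slc22a8 (0.052), an organic anion transporter and 1 of the markers used above, Fitm1 (0.061), Clrn3 (0.062) and Ly6g2 (0.063). Of the 9 genes, Hgd was nearest to their median (0.071) and Hpd and Bhmt were farthest (0.87 and 0.83). Hpd and Bhmt were each other's nearest gene among 11407, at 0.45, a comparison made after their values were seen. Hgd was much nearer to its own closest gene, Slc22a8 (0.044).

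Promoter stretches of 4 genes are shown so that the pair that left the marker pattern (Hpd and Bhmt) can be read beside genes that kept to it (Agxt2 and Miox). They are the 250 bases before the annotated start from RefSeq, build GRCm38.p6, read 5′ to 3′ on the strand of the gene. Capitals mark exact matches, on either strand, to sequences bound by HNF4 (CAAAGTCCA or CAAAGGTCA), to the TATA box (TATAAA) or to the GC box (GGGCGG). No marked matches overlap.
Hpd, chr5:123182724-123182973, minus strand: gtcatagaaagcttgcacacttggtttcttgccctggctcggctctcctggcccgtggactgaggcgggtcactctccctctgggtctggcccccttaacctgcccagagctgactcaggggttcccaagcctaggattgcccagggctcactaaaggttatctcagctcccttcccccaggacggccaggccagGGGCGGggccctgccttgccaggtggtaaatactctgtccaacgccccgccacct
Bhmt, chr13:93637759-93638008, minus strand: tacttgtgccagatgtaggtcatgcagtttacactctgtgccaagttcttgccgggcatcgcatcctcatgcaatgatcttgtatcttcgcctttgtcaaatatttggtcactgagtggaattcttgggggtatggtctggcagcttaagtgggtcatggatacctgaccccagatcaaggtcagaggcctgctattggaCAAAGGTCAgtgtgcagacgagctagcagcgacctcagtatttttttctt
Agxt2, chr15:10358283-10358532, plus strand, the first of 2 annotated starts: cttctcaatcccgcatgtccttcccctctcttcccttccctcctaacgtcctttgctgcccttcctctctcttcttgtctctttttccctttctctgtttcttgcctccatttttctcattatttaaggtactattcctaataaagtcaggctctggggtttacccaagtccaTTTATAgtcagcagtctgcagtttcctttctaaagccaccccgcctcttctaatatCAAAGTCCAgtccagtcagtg
Miox, chr15:89334223-89334472, plus strand: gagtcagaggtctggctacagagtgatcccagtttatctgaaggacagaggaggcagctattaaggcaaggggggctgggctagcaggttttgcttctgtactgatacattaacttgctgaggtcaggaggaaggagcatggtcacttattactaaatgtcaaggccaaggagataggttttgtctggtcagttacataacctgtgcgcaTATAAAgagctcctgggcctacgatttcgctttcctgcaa

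The 9 genes have 13 annotated starts among the 32851 in the table. Agxt2 held CAAAGTCCA, 21 to 13 bases before the start shown, and Bhmt held CAAAGGTCA, 50 to 42 bases before its start; these letters occur before 0.384% and 0.426% of all starts. Miox held a TATA box 40 to 35 bases before its start. The TATA box letters occurred before 5 of the 13 starts, in 4 of the 9 genes (Ddc, Agxt2, Miox and Hgd), and before 12.4% of all starts. In Ddc, Agxt2 and Hgd the match was on the opposite strand and farther from the start than in Miox. The GC box letters occurred before 3 of the 13 starts (Dao, Hpd and Fah) and before 32.7% of all starts. The pair of Hpd and Bhmt shared none of these matches: Hpd held only the GC box, 55 to 50 bases before its start. A match is a description of these letters and not a site of binding.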

How the data were processed

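RNA-seq libraries of glomeruli from 3 WT and 3 KO mice were compared. Groups and replicate numbers come from the sample titles. The deposited table is named as normalised counts, while its column headers say only counts. The values show a signal in which the authors had scaled the reads of each gene by the size factor of its library. Per the submitters' processing notes, reads were handled with HISAT2 2.1 and featureCounts 1.6.4 on mm10, after bcl2fastq 2.19 and cutadapt 1.16.5, and DESeq2 2.11.40.6 was used. The sources used here do not give the strand setting or annotation release. Whole reads were recovered from the step of each library (100% of values whole at a tolerance of 0.01), 11886828 to 20552984 per library.

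Symbols came from RefSeq (25275 identifiers) and GENCODE M21 (25293 named in all), and exon lengths from GENCODE M21. Genotypes were compared with limma 3.58.1 (R 4.3.3), using a variance trend on log2(normalised count + 1), for genes with a mean of at least 10, with Benjamini-Hochberg adjustment over 13946 genes, two-sided. The 9 genes, the pathway and marker lists and the covariate were chosen with earlier results of these data known, and the motifs with the promoters in view. Other genes named are up to 3 past the threshold with the smallest adjusted p per pathway list, 1 that went the other way, relatives (Bhmt2, Agxt), and the 5 genes nearest in pattern; further list members, the ratios between genes and Hpd's and Bhmt's likeness to each other were chosen after their values were seen. Some genes that this rule names are not reported here. Alternatives comprised edgeR 4.0.16 and DESeq2 1.42.0 on recovered reads, scaling by TMM or upper quartile, a replicate block, pseudocounts 0.5 and 5, other filters, no variance trend, the marker covariate and leaving out each library. The fits were tested on simulated counts. Counting limits cover counting error only.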

Additional observations from a re-analysis of the deposited data

How the results depend on the processing

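The 9 genes were all called higher with both other pseudocounts, TMM and upper quartile scaling, edgeR, DESeq2, no filter and a mean of at least 50. The count was 0 of 9 with a replicate block, without the variance trend and with the marker covariate, with 9, 9 and 1 at an unadjusted p under 0.05, and adjusted p-values of 0.0868 to 0.0874, 0.0539 to 0.0714 and 0.9999. Over all genes, 3085 calls became 0 with the replicate block, 1 without the trend and 0 with the covariate (4284, 5305 and 410 at an unadjusted p under 0.05), against 2841 in edgeR and 3810 in DESeq2. The 82 calls among pathway genes became 0, 0 and 0 (95, 94 and 7 at an unadjusted p under 0.05), against 72 in edgeR and 90 in DESeq2. Leaving out a library gave 0 to 4294 calls over all genes, 0 to 9 of the 9 genes and 0 to 96 pathway genes; fewer samples remain in these fits. The lowest counts came without WT-2, WT-3, KO-2 or KO-3 and the highest without WT-1. The labels do not say whether same-numbered mice share a litter or day, so the main fit used no block. Deviations of same-numbered libraries correlated at -0.23, -0.19 and -0.01 across genes, which does not settle whether the mice were paired.

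Fold changes of the 9 genes kept their sign in every alternative except Dao with the covariate (-0.16); the cause was not tested. Levels relative to the marker mean turned sign where they were near 0: Fah with the marker median (0.0334), and, leaving out a library, Fah from -0.17 to 0.0908, Agxt2 from -0.00068 to 0.12 and Dao from -0.0542 to 0.0771. For Bhmt, 14 reads or fewer in WT-1 and WT-2 limit the precision.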
